A study of Homo sapiens with 24 samples.

Results

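Total RNA was compared between A2058 cells that received a control siRNA (siCTRL) and were treated with hydroxyurea (HU) at 10 mM for 2 h and siCTRL cells that were left untreated (NT). A2058 cells, the line given in the labels, are an established line derived from human melanoma; 1 legend of the study names A375, another melanoma line, instead. The comparison takes 6 of the 24 libraries of the series, 3 of siCTRL HU and 3 of siCTRL NT, chosen by the labelled fraction, siRNA and treatment. The other 18 libraries are total RNA of cells with siRNA against LSM14A (siLSM14A, 20 nM) and polysomal RNA of both siRNAs, with and without HU. All cells of the series received cycloheximide 15 min before collection, since total RNA was a part of the lysate made for polysome profiling. HU cells and NT cells thus share both the siRNA and the drug, and all levels are levels after cycloheximide. Whether cycloheximide changed the response to HU was not tested. The libraries were stranded and made from polyadenylated RNA. The labels number the replicates 1 to 3 in each group without stating whether a number marks a separate culture. The spread between these samples may thus be technical. The p-values use it after the tests draw each gene's estimate towards a trend over all genes, so they do not measure the spread of a single gene alone.

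HU blocks ribonucleotide reductase, the enzyme that makes deoxyribonucleotides, so that replication forks stall and the kinase ATR activates CHEK1. Much of this checkpoint acts on proteins. At the level of RNA, stress of many kinds first raises immediate early genes, which are transcribed without new protein synthesis, encode transcription factors such as JUN, FOS and EGR1, and have short-lived mRNAs; p53 targets, NF-kappaB targets and genes of the integrated stress response form other early programmes.

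The 6 libraries held 24789280 to 39414429 counts, and mitochondrial mRNAs took 6.83 to 8.84% of them. Melanocyte lineage genes were abundant in both groups, with SOX10, a lineage transcription factor, at a mean of 663 CPM (counts per 10 to the power of 6) in NT and 655 in HU cells, and DCT, a melanin enzyme, at 940.3 and 946 CPM. Markers of other cell types were mixed. KRT5 and KRT19 were at 0 counts in every library, CDH1 and EPCAM at no more than 2 and PTPRC at no more than 7. The keratins KRT18 (83.4 CPM in NT and 83.6 in HU cells), KRT10 (61.4 and 64.5) and KRT8 (17.3 and 15.4) of the epithelial and keratinocyte lists were present. The summed level of the 5 epithelial markers was 98.1 to 106 CPM in NT and 96.8 to 103 CPM in HU libraries. LUM, a fibroblast marker, was at 42.8 and 40.1 CPM, and the summed level of the 6 fibroblast markers was 42.6 to 51.7 CPM in NT and 40.8 to 54.8 CPM in HU libraries. As in any bulk sample, fewer cells of a kind and less RNA per cell cannot be told apart.

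Changes upon HU were small. Over the 12506 protein-coding genes tested, the median standard error of the log2 change HU over NT was 0.078, and the 5th to the 95th percentile of that change ran from -0.18 to 0.17. Of 11630 genes above a mean of 1 CPM, 24 differed by more than 0.5 on the log2 scale. In edgeR's quasi-likelihood test without the replicate number, 0 genes (0%) passed an adjusted p (Benjamini-Hochberg) under 0.05, with a smallest adjusted p of 0.999932. At an unadjusted p under 0.05, 99 genes were higher (0.792% of those tested) and 81 lower (0.648%) with HU. DESeq2 called 1 gene, SOCS3.

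The same-numbered HU and NT libraries deviated together from their group means, so the number was taken to pair them (values under the processing of the data). The labels do not state a pairing. With replicate as a block in the model, the adjusted p was under 0.05 for 15 genes (0.12%) in edgeR. The same design in DESeq2 called 3 of them, SOCS3, PPP1R15A and SYNM, and no other gene, so that 12 of the 15 calls rest on the choice of tool. Upon HU, 10 rose (0.08%) and 5 fell (0.04%), and "rose" and "fell" below refer to this fit. The 10 were JUN, FOS, EGR1, CCN1, CCN2, SOCS3, DEPP1, NFKBIA, PPP1R15A and CXCL8, of which 5 stand on the list of immediate early genes. The 5 were SYNM, NES, ZKSCAN8, DDIT4 and CLK1. At an unadjusted p under 0.05, the blocked fit had 248 higher (1.98%) and 253 lower genes (2.02%).

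**Figure D1:**
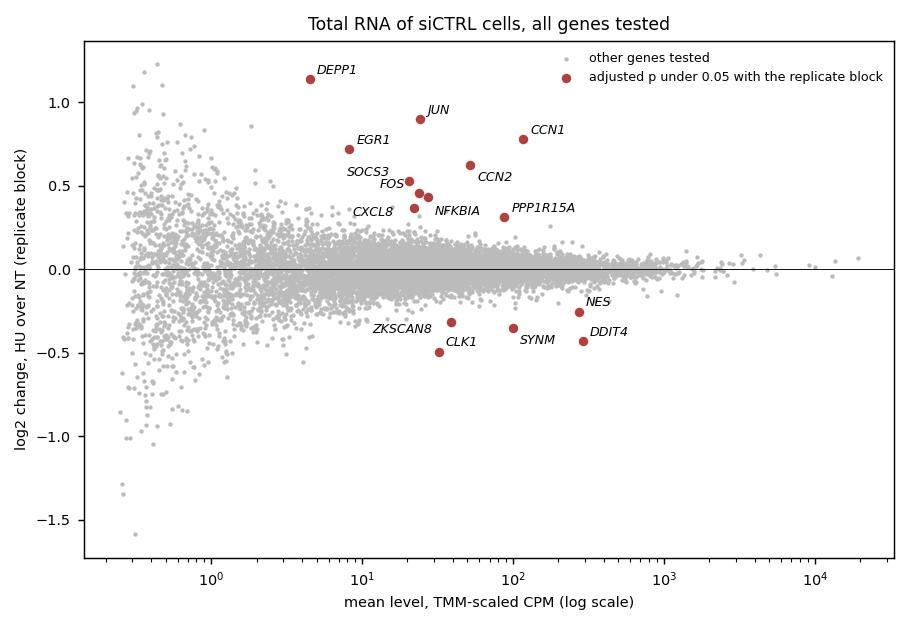
Each point is 1 of 12506 protein-coding genes in total RNA of siCTRL cells, with its mean level over the 6 libraries in TMM-scaled CPM (x axis, log scale) and its log2 change HU over NT with the replicate number as a block (y axis). Red points are the 15 genes at an adjusted p under 0.05, between a log2 change of -0.50 for CLK1 and 1.14 for DEPP1. Grey points spread more widely at low levels.

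Without the block, 11 of the 15 had an unadjusted p under 0.05 in edgeR, against 180 of 12506 genes tested, and none passed after adjustment. The 15 were chosen by the blocked fit of these same 6 libraries. This count and those of the pairs and groups below thus follow from that choice and are not a separate test. Of the 10 that rose, 8 were higher with HU in all 3 pairs, against 11.8% of all genes tested, and CCN1 and CCN2 were lower in pair 1. Of the 5 that fell, 3 were lower in all 3 pairs, against 11.3%, and DDIT4 and CLK1 were higher in pair 1. The HU and NT values did not overlap for SOCS3 and ZKSCAN8, while 5.36% of all genes tested had groups that did not overlap.

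Among the transcription factors, JUN (chr1:59242517-59249720 of hg19, minus strand), a component of AP-1, had 29.9, 13.6 and 9.46 CPM in NT replicates 1 to 3 and 41.3, 24.5 and 26.9 CPM in HU replicates 1 to 3. Its NT replicate 1 lay above 2 of the HU libraries, so the groups overlapped although each pair rose. The log2 change was 0.90 with the block (standard error (SE) 0.106, edgeR adjusted p 3.45e-05) and 0.82 without it (SE 0.31, unadjusted p 0.0221). FOS, the partner of JUN in AP-1, had 21.8, 23.1 and 15.05 CPM in NT and 36.6, 23.5 and 22.998 CPM in HU libraries. Pair 2 hardly differed, at 0.03 on the log2 scale, against 0.75 and 0.61 in pairs 1 and 3, and the blocked log2 change was 0.45 (SE 0.0912, edgeR adjusted p 0.0261). EGR1 (chr5:137801168-137804992, plus strand), a zinc finger factor of the serum response, had 3.86, 10.2 and 4.76 CPM in NT and 10.3, 12.6 and 7.67 CPM in HU libraries. The pairs differed by 1.41, 0.31 and 0.68, and the blocked log2 change was 0.72 (SE 0.13, edgeR adjusted p 0.0107). The values of EGR1 rest on 96 to 422 counts a library.

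CCN1 and CCN2 encode secreted matricellular proteins and are known targets of the YAP and TEAD factors. CCN1 (chr1:86046444-86050272, plus strand) had 196, 48.7 and 46.3 CPM in NT and 181, 99.6 and 131 CPM in HU libraries. NT replicate 1 was about as high as its HU partner, while the pairs with numbers 2 and 3 differed by 1.03 and 1.5015 on the log2 scale. The blocked log2 change was 0.78 (SE 0.141, edgeR adjusted p 0.0107), and without the block it was 0.51 (SE 0.43, unadjusted p 0.256). CCN2 (chr6:132269316-132272512, minus strand) followed the same pattern at 78.1, 26.7 and 26.03 CPM in NT and 73.9, 45.7 and 62.4 CPM in HU libraries, with a blocked log2 change of 0.63 (SE 0.121, edgeR adjusted p 0.0169).

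SOCS3, the feedback inhibitor of cytokine signalling through JAK and STAT, separated the groups. It had 18.2, 16.6 and 15.2 CPM in NT and 26.95, 20.8 and 24.6 CPM in HU libraries, so that every HU library lay above every NT library. The log2 change was 0.53 both with the block (SE 0.0781, edgeR adjusted p 0.00149) and without it (SE 0.10, unadjusted p 0.00024). DEPP1, a FOXO-regulated gene linked to autophagy, had 5.88, 1.51 and 1.65 CPM in NT and 7.51, 4.58 and 5.95 CPM in HU libraries. Its NT replicate 1 reached the HU range, and its blocked log2 change of 1.14 (SE 0.182, edgeR adjusted p 0.00283) rests on 50 to 231 counts a library.

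NFKBIA, which encodes the NF-kappaB inhibitor I-kappaB alpha and is itself an NF-kappaB target, had 29.2, 21.8 and 18.9 CPM in NT and 36.1, 27.7 and 29.6 CPM in HU libraries. Each pair was higher with HU, and the blocked log2 change was 0.43 (SE 0.0722, edgeR adjusted p 0.00397). CXCL8, the neutrophil chemokine interleukin 8, had 16.3, 24.6 and 17.3 CPM in NT and 22.1, 27.5 and 24.7 CPM in HU libraries. Its blocked log2 change of 0.36 (SE 0.0764, edgeR adjusted p 0.042) was nearest to the threshold of the 15 genes. PPP1R15A (GADD34), the phosphatase subunit that restores translation after phosphorylation of eIF2 alpha, had 85.4, 81.4 and 66.8 CPM in NT and 108, 98.3 and 84.0 CPM in HU libraries. Its pairs differed by nearly the same amount, 0.33, 0.27 and 0.33, with a blocked log2 change of 0.31 (SE 0.0522, edgeR adjusted p 0.00397).

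Of the genes that fell, ZKSCAN8, a zinc finger protein with a KRAB and a SCAN domain, had 47.6, 40.5 and 41.9 CPM in NT and 39.1, 33.5 and 31.9 CPM in HU libraries. The groups did not overlap, and the blocked log2 change was -0.32 (SE 0.0608, edgeR adjusted p 0.0169). DDIT4 (REDD1), an inhibitor of mTORC1 that many stresses induce, had 196, 434 and 390.1 CPM in NT and 210.1, 258 and 255 CPM in HU libraries. It was at a like level in both libraries of pair 1 and lower with HU in the other pairs, and the blocked log2 change was -0.43 (SE 0.0828, edgeR adjusted p 0.0169). CLK1, a kinase of SR splicing factors, behaved alike, at 22.7, 49.4 and 41.6 CPM in NT and 24.7, 28.1 and 26.1 CPM in HU libraries, with a blocked log2 change of -0.50 (SE 0.0977, edgeR adjusted p 0.021).

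The intermediate filament genes SYNM (synemin) and NES (nestin) also fell. SYNM had 174, 72.3 and 91.5 CPM in NT and 124, 59.9 and 74.9 CPM in HU libraries, and NES had 454, 209.9 and 232 CPM in NT and 355, 169 and 216 CPM in HU libraries. In both genes, replicate 1 was the highest of its group and each pair was lower with HU. The blocked log2 changes were -0.35 for SYNM (edgeR adjusted p 0.00201) and -0.25 for NES (edgeR adjusted p 0.0169). Without the block and without NT replicate 1, their log2 changes turned to 0.07 and 0.16.

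**Figure D2:**
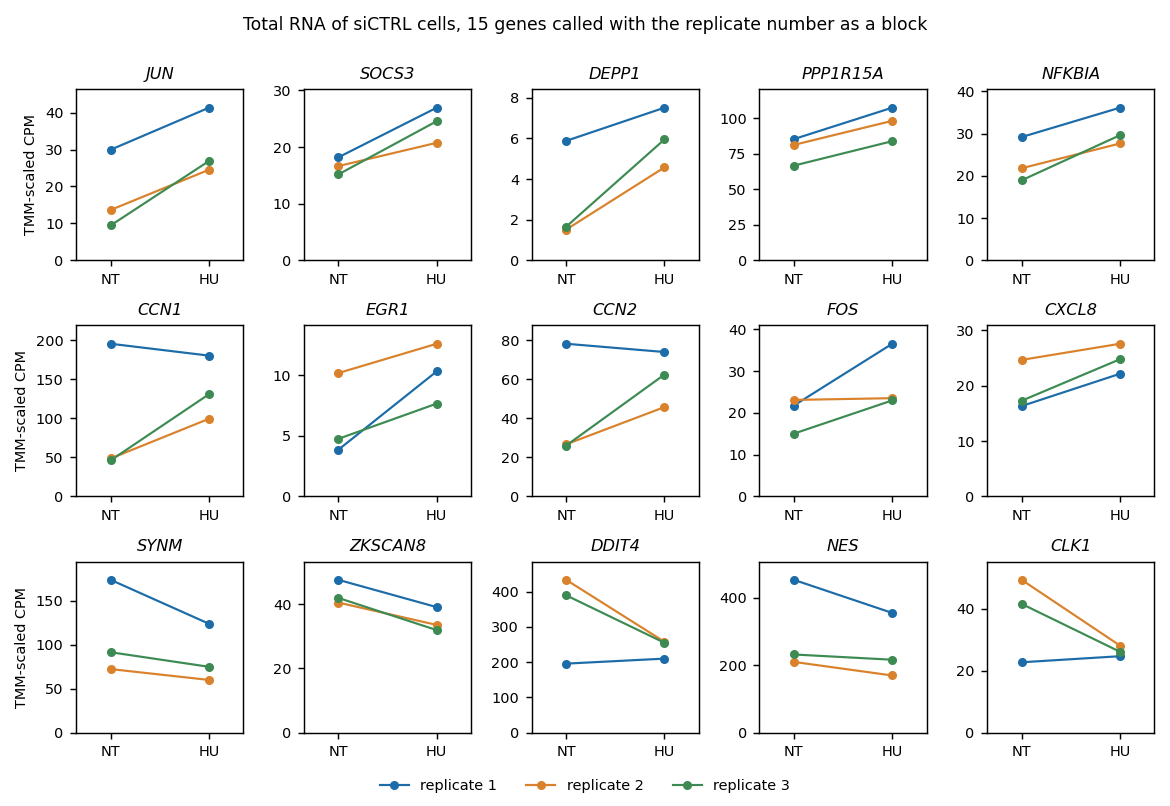
Each panel shows 1 of the 15 genes, with TMM-scaled CPM on the y axis (from 0) and NT and HU on the x axis. Points are single libraries of siCTRL total RNA and lines join libraries with the same replicate number. The first 10 panels rose and the last 5 fell with the replicate number as a block, and the lines of replicate 1 run the other way in CCN1, CCN2, DDIT4 and CLK1.

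The motifs that the regulators of these genes are known to bind were looked up in the 300 bases around each start site (250 before, 50 after) of RefSeq's promoter table for GRCh38.p14, on both strands. Entries were found for 9 of the 10 genes that rose and for 5 of 5 that fell. The genes that rose held 13 matches of the 7 motifs searched. The windows of 30 bases below show 6 of them, 1 or 2 for each motif that a known regulator of the gene binds, 5′ to 3′ on the strand of the gene with the motif in capitals.
EGR1 serum response element, 105 bases before the start (chr5:138465364-138465393, plus strand): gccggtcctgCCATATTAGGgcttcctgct
EGR1 serum response element, 83 bases before the start (chr5:138465386-138465415, plus strand): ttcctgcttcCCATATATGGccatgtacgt
PPP1R15A cyclic AMP response element, 58 bases before the start (chr19:48872352-48872381, plus strand): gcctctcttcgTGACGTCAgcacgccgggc
NFKBIA NF-kappaB motif, 81 bases before the start (chr14:35404811-35404840, minus strand): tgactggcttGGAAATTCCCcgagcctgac
CXCL8 AP-1 motif, 137 bases before the start (chr4:73740421-73740450, plus strand): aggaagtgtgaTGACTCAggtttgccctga
CCN2 TEAD motif, 169 bases before the start (chr6:131951524-131951553, minus strand): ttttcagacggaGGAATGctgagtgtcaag

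The serum response element stood in 1.293% of 35116 promoters of the table and in 1 of the 14 genes looked up, EGR1. The cyclic AMP response element (TGACGTCA) stood in 1.848% of promoters and in 1 of the 14, PPP1R15A. The AP-1 motif (TGANTCA) stood in 7.709% and in 1 of the 14, CXCL8. The NF-kappaB motif stood in 9.084% and in 2 of the 14, CCN2 and NFKBIA. The TEAD motif (GGAATG) stood in 14.033% of promoters and in CCN2, DEPP1 and SOCS3, and the copy of CCN2 at 95 bases before the start overlaps an NF-kappaB match. A STAT motif (TTCNNNGAA) stood in 7.657% of promoters and in EGR1, and the amino acid response element (TGATGNAA) in 3.617% and in none of the 14. None of these motifs was found in the windows of the 5 genes that fell. The shares are per promoter entry, while a gene with several entries, such as SOCS3, counts if any of them matches. A match describes the letters only, and whether a motif is more frequent in these genes than in other promoters was not tested.

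One untreated library was at the level of HU cells for 8 of the 15 genes. For CCN1, CCN2, JUN, DEPP1, NFKBIA, PPP1R15A, DDIT4 and CLK1, the library labelled NT replicate 1 lay within or beyond the HU range, as in the values above. For SYNM and NES it lay far above the other NT libraries. NT replicate 2 also lay within the HU range for EGR1, FOS and CXCL8, and NT replicates 2 and 3 did for SYNM and NES. How many of all genes tested have an NT library in the HU range was not counted, so the 8 of 15 cannot be read as particular to these genes. Only 5.36% of all genes tested had groups that did not overlap, so an NT library within or beyond the HU range was common. When NT replicate 1 was left out of the fit without the block, CCN1, CCN2, JUN, DEPP1, DDIT4 and CLK1 passed an adjusted p under 0.05 and no other gene did. The log2 changes were then 1.53 for CCN1, 1.1996 for CCN2, 1.40 for JUN, 1.92 for DEPP1, -0.77 for DDIT4 and -0.79 for CLK1. Leaving out any other single library gave 0 genes. NT replicate 1 was the shallowest library, and both libraries of replicate 1 had the lowest shares of mitochondrial mRNA, 7.05% in NT and 6.83% with HU, against 8.05 to 8.84% in the other 4. The part of depth or of this share in the result was not tested. As NT replicate 1 is recognised by the levels of these genes, their values without it are a description of the remaining libraries.

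The siLSM14A libraries, which the comparison does not use, held a like case. In siLSM14A NT cells, CCN1 was at 74.0, 74.2 and 232 CPM in replicates 1 to 3, against 204, 141 and 152 CPM with HU. DDIT4 was at 458, 441 and 185 CPM in siLSM14A NT and at 242, 291 and 274 CPM in siLSM14A HU cells. Here NT replicate 3 was the library at the level of HU cells or beyond it. CLK1 was at 47.7, 46.3 and 27.5 CPM in siLSM14A NT and at 22.3, 26.1 and 26.1 CPM in siLSM14A HU cells, so that NT replicate 3 was again nearest to HU. With siLSM14A NT replicate 3 left out, 6 genes passed an adjusted p under 0.05 in edgeR without the block, and all 6 were the genes called in siCTRL cells without NT replicate 1. Their log2 changes HU over NT were 1.16 for CCN1, 0.96 for CCN2, 0.88 for JUN, 1.47 for DEPP1, -0.74 for DDIT4 and -0.92 for CLK1. As siLSM14A NT replicate 3 is also recognised by the levels of these genes, their calls without it follow from that choice and are not a separate test. Whether these 2 untreated libraries differ from the others in culture, handling or labelling was not tested.

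**Figure D3:**
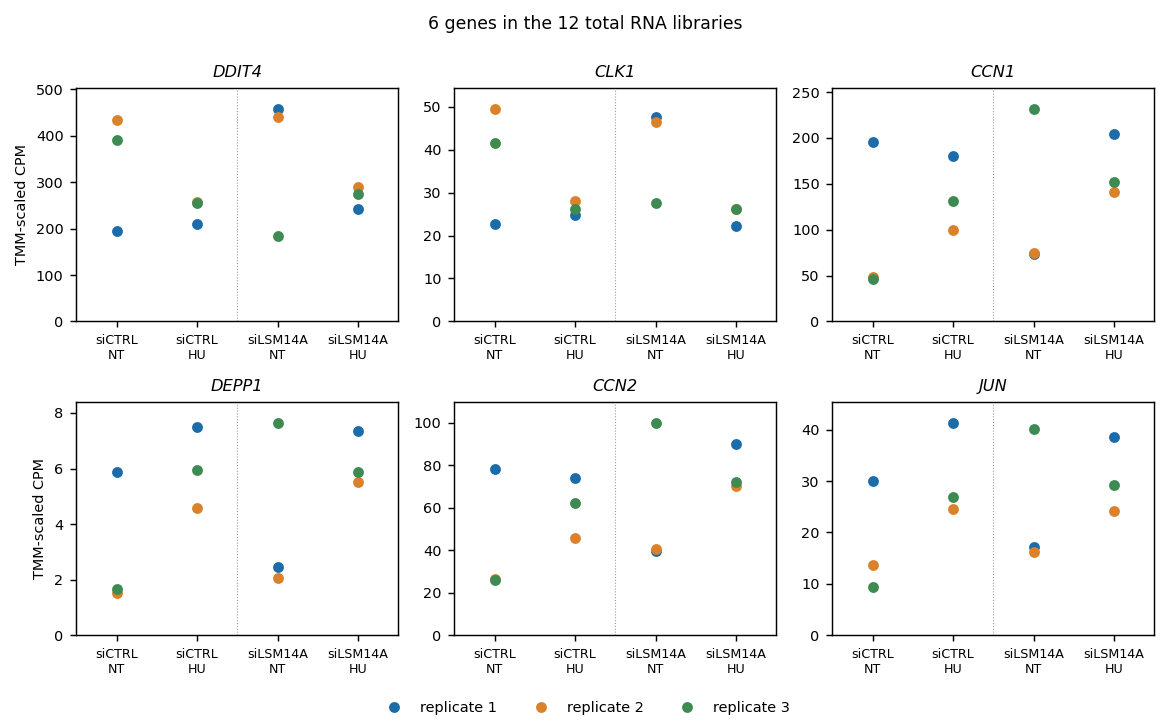
Each panel shows 1 of the 6 genes, with TMM-scaled CPM on the y axis (from 0, scaled within each siRNA) and the 4 groups of total RNA libraries on the x axis. Points are single libraries, coloured by replicate number. In siCTRL NT, replicate 1 lies apart from the other two, and in siLSM14A NT, replicate 3 does, each near the level of the HU libraries.

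With all libraries kept, 14 of the 15 genes had the same sign of change in total RNA of siLSM14A cells, where 51.4% of all genes shared their sign between the siRNAs. CXCL8 was the exception, at -0.02 (SE 0.18). Unadjusted p under 0.05 was reached by 4 of the 15 without the block, against 5.2% of all genes tested in siLSM14A cells, and by none after adjustment, with or without the block. With the block it was also reached by 4, against 10.4% of all genes, but same-numbered siLSM14A libraries did not deviate together. Without the block, the 4 were SOCS3 at 0.27 (SE 0.11, unadjusted edgeR p 0.0307), PPP1R15A at 0.21 (SE 0.06, p 0.00644), ZKSCAN8 at -0.26 (SE 0.09, p 0.0129) and CLK1 at -0.70 (SE 0.16, p 0.00092). The interaction of HU and siRNA had an unadjusted p under 0.05 for 0 of the 15 in edgeR, against 2.9% of all genes, and 0 genes passed after adjustment in edgeR or in DESeq2. With the block, 1 of the 15 had an unadjusted p under 0.05, against 5.34%, and this was CXCL8, at -0.40 (unadjusted edgeR p 0.0208, adjusted 0.868). These tests do not show that the responses were alike.

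Polysomal RNA was isolated from the same siCTRL lysates and holds mRNAs bound by many ribosomes. The 15 genes were chosen in total RNA of these lysates, so their values in polysomal RNA are a second measurement of the same samples and not a separate test. There, 15 of 15 genes had the sign of the change in total RNA, against 51.8% of all genes, and 2 had an unadjusted p under 0.05, against 2.1%. These were EGR1 at 0.57 (SE 0.24, unadjusted edgeR p 0.0316) and CLK1 at -0.46 (SE 0.21, p 0.045). The polysomal libraries deviated together by number too. With the block, 9 of the 15 had an unadjusted p under 0.05, against 10.3% of all genes, and none passed after adjustment. The 9 were JUN, DEPP1, CCN1, PPP1R15A, CCN2, SOCS3, EGR1, ZKSCAN8 and CLK1, with JUN at 0.81 (unadjusted edgeR p 0.000842, adjusted 0.195). In that fit 14 of 15 signs were shared, against 51.5% of all genes, and NES was at 0.01. The polysomal library of siCTRL NT replicate 1 also had high CCN1, at 145 CPM against 38.9 and 36.9 CPM in NT replicates 2 and 3. Without it, CCN1 (1.37) and DEPP1 (1.75) passed an adjusted p under 0.05 in polysomal RNA. As this library is again recognised by the levels of these genes, their calls without it follow from that choice and are not a separate test.

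**Figure D4:**
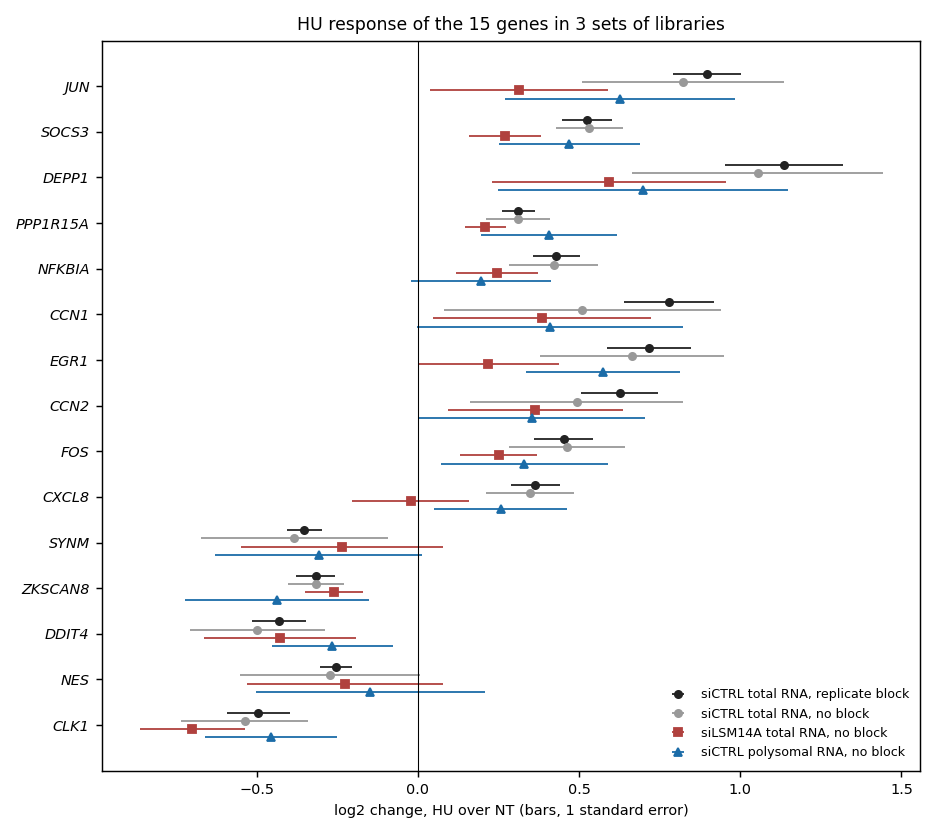
The x axis gives the log2 change HU over NT and the y axis the 15 genes. Symbols are fitted changes and bars 1 standard error, for siCTRL total RNA with the replicate number as a block (black) and without it (grey), siLSM14A total RNA (red) and siCTRL polysomal RNA (blue). All symbols of a gene lie on 1 side of 0 except that of CXCL8 in siLSM14A cells.

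Gene lists are described by 3 fits whose shares over all genes differ. Lists and members were chosen with earlier results of these data known, so their counts describe these libraries and are not a separate test. At an unadjusted p under 0.05, 0.792% of all genes were higher and 0.648% lower without the block, 1.98 and 2.02% with it, and 5.83 and 5.44% in the blocked fit without both libraries of replicate 1, which has 2 pairs. The calls of this last fit rest on the trend over all genes more than on the spread between pairs. Of its 93 genes at an adjusted p under 0.05 in edgeR, 51 had the opposite sign in pair 1.

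Among the lists so chosen, that of immediate early genes had the most calls. Of 34 tested members, 30 had a log2 change above 0, and the list's median was 0.12, against 0.00 over all genes tested. In the blocked fit, 13 of 34 were higher and 0 lower at an unadjusted p under 0.05, and 5 passed after adjustment, against 0.12% of all genes. Without the block, 6 were higher and 0 lower. With both libraries of replicate 1 left out of the blocked fit, 11 were higher and 2 lower. After adjustment, 7 were higher and 1 lower in that fit, against 0.739% of all genes in both directions. RHOB, a GTPase induced by DNA damage, was one of the 13, at 54.4, 54.8 and 45.8 CPM in NT and 64.0, 55.5 and 60.2 CPM in HU libraries (blocked log2 change 0.22, unadjusted edgeR p 0.00192, adjusted 0.693). NR4A1 (0.20), GADD45B (0.32), JUNB (0.21) and ZFP36 (0.36), named after their values were seen, were also among the 13, with adjusted p of 0.827 or above. MYC at 0.06 (SE 0.07) and ATF3 at 0.12 (SE 0.15), both often listed with early stress genes, had an interval that includes 0.

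The list of NF-kappaB targets had 1 gene that rose, NFKBIA, while CXCL8 was not on this list and is counted with the ERK genes below. Of 20 tested, 7 were higher and 0 lower at an unadjusted p under 0.05 in the blocked fit (4 and 0 without it, and 7 and 1 with replicate 1 left out), with a median of 0.09. Without the block, 4 of the 20 had a log2 change below 0. TNFAIP3, another inhibitor in the NF-kappaB pathway, was at 21.8, 24.2 and 20.5 CPM in NT and 29.9, 24.9 and 24.7 CPM in HU libraries, which do not overlap (blocked log2 change 0.25, edgeR adjusted p 0.751). The chemokine CXCL1 had a blocked log2 change of 0.35 (edgeR adjusted p 0.0541), CXCL2 of 0.51 (0.999) and CXCL3 of 0.50 (0.827), and the cytokine IL6 of 0.38 (0.999), all 4 named after their values were seen. Among 18 tested genes that dampen or report ERK signalling, 4 were higher and 0 lower in the blocked fit at an unadjusted p under 0.05, including CXCL8 and the phosphatase DUSP2 (0.36, edgeR adjusted p 0.968), and the median was 0.01. With replicate 1 left out, 4 were higher and 4 lower.

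**Figure D5:**
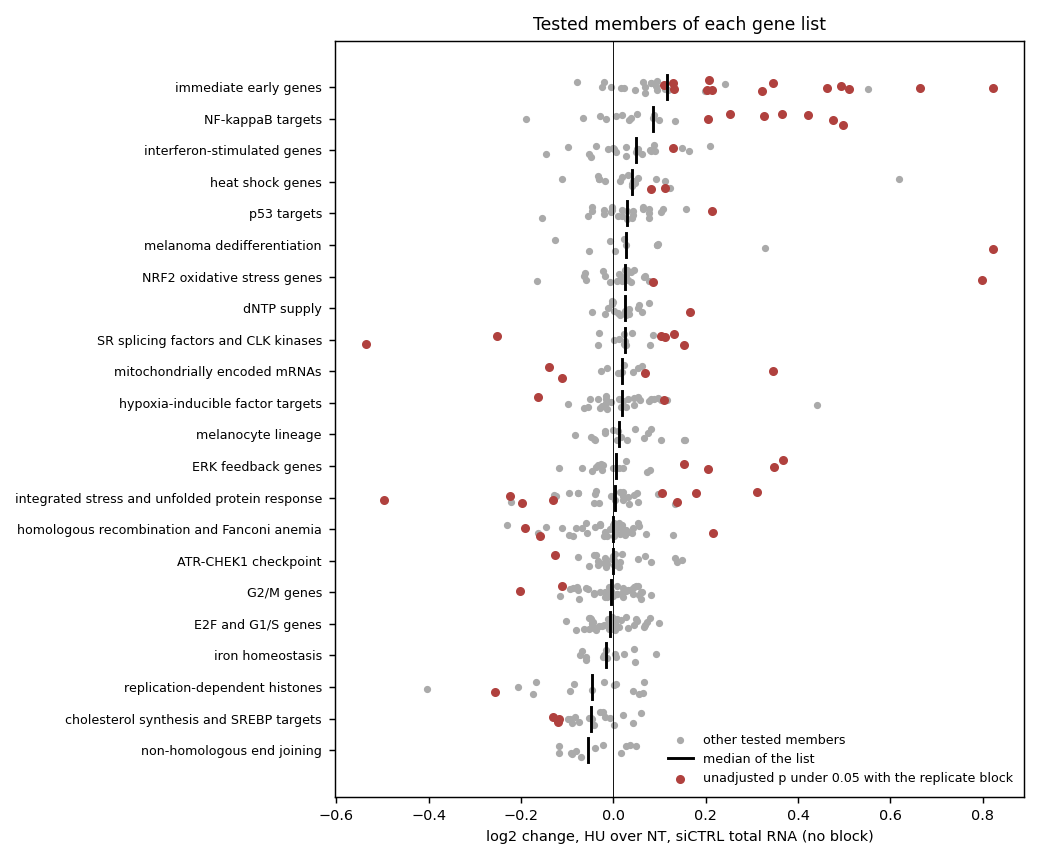
The x axis gives the log2 change HU over NT in siCTRL total RNA without the block and the y axis 22 gene lists, ordered by their median (black bar). Each point is 1 tested member, red where its unadjusted p was under 0.05 with the replicate number as a block. Immediate early genes and NF-kappaB targets have the highest medians, 0.12 and 0.09, and red points on the positive side only.

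The integrated stress and unfolded protein responses had members on both sides. Of 31 tested members, 4 were higher and 4 lower at an unadjusted p under 0.05 in the blocked fit (6 and 6 with replicate 1 left out), and the median was 0.00. PPP1R15A rose and DDIT4 fell. ASNS, the asparagine synthetase induced by ATF4, had a blocked log2 change of -0.23 (edgeR adjusted p 0.116) and PHGDH, an enzyme of serine synthesis, of -0.13 (0.831), both named after their values were seen. DDIT3 (CHOP), a factor of the terminal unfolded protein response, was at 24.8, 24.2 and 22.98 CPM in NT and 25.2, 26.3 and 27.4 CPM in HU libraries (log2 change 0.13, SE 0.07, unadjusted p 0.0832).

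Genes of replication stress itself hardly differed with all libraries kept. RRM1, the large subunit of ribonucleotide reductase, was at 199, 175 and 186 CPM in NT and 182, 173 and 186 CPM in HU libraries, a log2 change of -0.05 with a 95% interval from -0.17 to 0.08. The small subunits RRM2 and RRM2B changed by 0.00 (-0.13 to 0.13) and -0.02 (-0.24 to 0.20). Of 19 tested genes of dNTP supply, 1 was higher at an unadjusted p under 0.05, NME1, a nucleoside diphosphate kinase (0.17, SE 0.06, p 0.0222). With replicate 1 left out, 3 were higher and 0 lower, which is 15.8% against 5.83% of all genes higher. CHEK1 differed by 0.01 (-0.13 to 0.16) and ATR by -0.08 (-0.24 to 0.09), and none of 26 tested genes of the ATR-CHEK1 checkpoint had an unadjusted p under 0.05 without the block (0 higher and 1 lower with it, and 2 and 0 with replicate 1 left out).

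Among 27 tested p53 targets, 0 had an unadjusted p under 0.05 without the block and 1 with it, GADD45A, which marks growth arrest and DNA damage (0.22, edgeR adjusted p 0.827). With both libraries of replicate 1 left out, 7 were higher and 0 lower, which is 25.9% against 5.83% of all genes higher, and GADD45A passed after adjustment (0.29, edgeR adjusted p 0.03003). That fit does not measure the spread between pairs. In siLSM14A cells without the block, 1 p53 target was higher and 1 lower at an unadjusted p under 0.05, with a median of -0.003. GADD45A was at 0.05 there (SE 0.14). CDKN1A, the inhibitor p21, was at 31.998, 36.2 and 33.4 CPM in NT and 37.7, 39.4 and 32.7 CPM in HU libraries, a log2 change of 0.11 with an interval from -0.07 to 0.28. MDM2, the ubiquitin ligase of p53, differed by 0.02 (-0.14 to 0.17). DDB2, a p53 target of nucleotide excision repair, was at -0.15 (-0.34 to 0.03).

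Few cell cycle genes had a small p. None of 40 tested E2F and G1/S genes and none of 39 tested G2/M genes had an unadjusted p under 0.05 without the block, and 0 and 2, the latter both lower, had one with it. With replicate 1 left out, 1 E2F and G1/S gene was higher and 3 lower, and 3 G2/M genes were higher. Cyclin E2 (CCNE2) differed by -0.04 (-0.20 to 0.13), cyclin B1 (CCNB1) by -0.01 (-0.14 to 0.13) and the mitotic kinase PLK1 by 0.03 (-0.13 to 0.19). Replication-dependent histones, whose mRNAs mostly lack a poly(A) tail and were selected against here, were scarce. Of 59 listed, 27 were matched in the table and 15 tested, with 0 called without the block and 1 lower with it, H2BC11 (-0.26, unadjusted edgeR p 0.0389, adjusted 0.999).

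In DNA repair, 41 tested genes of homologous recombination and Fanconi anemia had 1 higher and 1 lower member at an unadjusted p under 0.05 without the block. These were RMI2, a subunit of the complex that dissolves Holliday junctions (0.21, SE 0.09), and EME1, a partner of the nuclease MUS81 (-0.19, SE 0.07). With the block, 1 was higher and 2 were lower. Of 12 tested genes of non-homologous end joining, 0 had an unadjusted p under 0.05 with or without the block, and LIG4, the ligase of that pathway, differed by -0.12 (-0.33 to 0.09). With replicate 1 left out, 0 of the 12 were higher and 2 lower, which is 16.7% against 5.44% of all genes lower. The helicase RTEL1 had 10 to 29 counts a library, which leaves a wide interval around its -0.23 (-1.03 to 0.57). LSM14A itself was at 94.7 ± 2.55 CPM in NT and 96.7 ± 5.93 CPM in HU cells (SD, n = 3 each).

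No gene of the other stress lists passed after adjustment with the block. Of 23 tested NRF2 targets, 2 were higher and 0 lower in the blocked fit at an unadjusted p under 0.05, with SRXN1, a peroxiredoxin reductase, at 0.845, 2.47 and 0.595 CPM in NT and 1.67, 4.49 and 0.979 CPM in HU libraries. Each pair of SRXN1 was higher with HU while replicate 2 exceeded the other replicates in both groups, and the blocked log2 change was 0.86 (SE 0.199, edgeR adjusted p 0.116). With replicate 1 left out, 2 NRF2 targets were higher and 3 lower, and SRXN1 passed after adjustment (0.83, edgeR adjusted p 0.0451). HMOX1, the heme oxygenase of the same list, differed by -0.01 (-0.22 to 0.21). Heat shock genes had 2 higher and 0 lower of 20 tested, interferon-stimulated genes 1 and 0 of 23, and hypoxia-inducible factor targets 1 and 1 of 30, where VEGFA differed by 0.04 (-0.12 to 0.21) and EGLN3 by 0.44 (-0.03 to 0.92). Iron homeostasis genes, of interest because HU binds iron, had 0 of 14, with the transferrin receptor TFRC at -0.02 (-0.16 to 0.12). With replicate 1 left out, 6 of 21 tested heat shock genes were higher and 0 lower, and 5 of 31 tested hypoxia-inducible factor targets were higher and 4 lower.

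Cholesterol synthesis genes and SREBP targets had 3 lower and 0 higher of 20 tested in the blocked fit, and a median of -0.05. The fatty acid desaturase SCD had a blocked log2 change of -0.12 (edgeR adjusted p 0.865). FASN, the fatty acid synthase, had -0.12 (0.999) and SREBF1, the factor itself, -0.13 (0.977), both named after their values were seen. With replicate 1 left out, 9 of the 20 were lower and 0 higher, against 5.44% of all genes lower. In that fit, which does not measure the spread between pairs, FASN (-0.20, SE 0.042, pairs at -0.09 and -0.31, edgeR adjusted p 0.0013) and SREBF1 (-0.18, 0.0128) passed after adjustment. Both had the opposite sign in siLSM14A cells, at 0.11 and 0.09. Among SR splicing factors and CLK kinases, 4 of 18 were higher and 2 lower. The kinases CLK1 and CLK4 were the lower members, with CLK4 at 8.53, 11.2 and 8.80 CPM in NT and 8.20, 7.60 and 8.32 CPM in HU libraries (-0.25, edgeR adjusted p 0.999), and CLK4 had a log2 change of -0.57 in siLSM14A cells (SE 0.13, unadjusted p 0.000874). SRSF5, an SR protein named after its values were seen, had a blocked log2 change of 0.16 (edgeR adjusted p 0.693). At an unadjusted p under 0.05 in the blocked fit, melanocyte lineage genes had 0 of 18, melanoma dedifferentiation genes 1 of 11, JUN, and mitochondrially encoded mRNAs 2 higher and 2 lower of 13 (4 and 0 with replicate 1 left out).

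The genes with the smallest p without the block included several with few counts. Beside SOCS3, PPP1R15A and NFKBIA, the 10 of them that were higher with HU held FST, MARCHF3, FOXC1, PCDHB4, CITED2, TNFSF9 and CITED1. FST, the activin antagonist follistatin, was at 0.322, 0.308 and 0.265 CPM in NT and 0.653, 0.658 and 0.618 CPM in HU libraries, which rests on 8 to 24 counts. FOXC1, a forkhead factor, was at 18.9, 18.04 and 17.5 CPM in NT and 23.8, 21.7 and 20.2 CPM in HU libraries. Neither range overlapped, with unadjusted p of 0.00478 and 0.00711 in edgeR without the block and adjusted p of 0.865 and 0.442 with it. CITED2, a coactivator that restrains hypoxia-inducible factor, came close to the threshold with the block, at 0.37 and an adjusted p of 0.0541. In siLSM14A cells, FST changed by 0.02 (SE 0.42), FOXC1 by 0.05 (SE 0.10) and MARCHF3 by -0.17 (SE 0.22).

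The 10 lower with HU by the same measure held, beside ZKSCAN8, ZNF141, EFNB1, C1RL, PPP1R3G, CHADL, NUP153, ZKSCAN4, OLFM2 and PCDH9. ZNF141, a KRAB zinc finger gene, was at 5.35, 4.68 and 4.86 CPM in NT and 3.81, 3.56 and 3.35 CPM in HU libraries (unadjusted p 0.00406). EFNB1, the ligand ephrin B1, was at 5.15, 4.57 and 4.76 CPM in NT and 3.01, 2.78 and 3.99 CPM in HU libraries (unadjusted p 0.00481). Both sets of values were apart, yet EFNB1 differed by 0.02 (SE 0.17) in siLSM14A cells. NUP153, a nuclear pore protein, was at 163 ± 4.22 CPM in NT and 147 ± 3.58 CPM in HU cells (SD, n = 3 each). ZKSCAN4, which like ZKSCAN8 carries zinc fingers and a SCAN domain, differed by -0.31 (SE 0.11).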

How the data were processed

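The authors trimmed the paired reads with Trim Galore, aligned them to hg19 with STAR (2.6.1a per the submitters' processing notes) and counted reads per Gencode gene. What they deposited is a table of raw counts, with no normalization. The strand setting of the counting is not given in the sources used here. Of 20345 gene IDs, 19637 had an entry in Gencode lifted to GRCh37 (hg19), 19086 of them as protein-coding genes, and 708 were not, which took 0.348 to 0.366% of the counts. The other gene types and these IDs stayed out of the tests.

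Genes were kept by filterByExpr (minimum count 10, minimum total 15) and tested in edgeR 4.0.16 (R 4.3.3) with TMM scaling and the quasi-likelihood test on the 6 libraries, with Benjamini-Hochberg adjustment over all genes tested. Standard errors are the size of the log2 change divided by the root of F, and 95% intervals use the test's degrees of freedom. These errors also use the trend over all genes and can be small where the pairs of a gene differ. The blocked SE was 0.141 for CCN1, with pairs at -0.117, 1.03 and 1.50, and 0.106 for JUN, with pairs at 0.46, 0.84 and 1.50. CPM values are TMM-scaled within each comparison. Pair differences are of log2 CPM with a prior count of 2. Deviations from the group means correlated at 0.295, 0.306 and 0.215 over genes in the 3 same-numbered HU and NT pairs, all above 0.1, so the numbers were taken to pair the libraries and the block was printed beside results. In polysomal RNA of siCTRL cells they correlated at 0.294, 0.238 and 0.522, and in siLSM14A cells at -0.146, 0.241 and -0.00484. Within groups, Pearson's r of log2 CPM was 0.994 to 0.996 and the chi-square per gene 6.95 to 20.3, and each pair differed by more than sampling noise.

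Named genes are those at an adjusted p under 0.05 without or with the block, the 10 with the smallest p in each direction, the 2 with the smallest p of each gene list, and a list of genes of replication stress, of which HSPA1A was not tested; others are said to be named after their values were seen. Members, lists and tests were chosen with earlier results of these data known. Alternatives were DESeq2 1.42.0, RLE size factors, other filters, all gene IDs, limma-voom (limma 3.58.1), a GC correction (loess, span 0.3) and leaving out libraries. The scripts were tested on simulated data.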

Additional observations from a re-analysis of the deposited data

How the results depend on the processing

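The number of genes at an adjusted p under 0.05 depended on the replicate block. Without it, 0 genes passed in edgeR, 1 in DESeq2 and 0 to 6 with single libraries left out, the 6 without NT replicate 1. At an unadjusted p under 0.05, 180 genes passed, 96 in DESeq2, 501 with the block, 883 with the block and GC correction, and 86 to 390 with single libraries left out. The replicate block gave 15 genes and the block with the GC correction 24, of which 14 were shared. CXCL8 was the gene lost. The log2 change followed exon GC content differently in each pair, with Spearman's rho across 12506 genes, which are not independent, of 0.42, -0.20 and -0.30.

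The settings of the blocked fit below, apart from the GC correction, were chosen after seeing the data. With RLE size factors or all gene IDs, 15 of the 15 genes were still called, in limma-voom 14, with at least 10 counts in every library 13, and in DESeq2 with the block 3 (SOCS3, PPP1R15A and SYNM). Without both libraries of replicate 2, 13 genes passed, 10 of them among the 15, and without both of replicate 3, 18 and 12. Without both libraries of replicate 1, 93 genes passed (0.739%), 47 higher and 46 lower, with 15 of the 15 among them. Of the 93, 51 had the opposite sign in pair 1, and 54 of 92 had the same sign in siLSM14A cells. This fit has 2 pairs, and its calls rest on the trend over all genes more than on the spread between pairs. The sign of the 15 genes was kept under each of these settings.

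In siLSM14A cells, 0 genes passed, and 0 to 6 with single libraries left out. In polysomal RNA, 0 passed, 1 with the block, and 0 to 2 with single libraries left out. The interaction had 0 under each alternative run. Without the block, the log2 change of some named genes changed sign with single libraries left out. The ranges were -0.733 to 0.0704 for SYNM, -0.628 to 0.159 for NES, -0.0696 to 1.73 for SRXN1 and -0.579 to 0.0615 for RTEL1. For genes near 0 they were -0.00545 to 0.101 for MYC, -0.0911 to 0.000711 for RRM1, -0.0571 to 0.0456 for RRM2, -0.102 to 0.103 for RRM2B, -0.039 to 0.0592 for CHEK1, -0.0542 to 0.0614 for MDM2, -0.0955 to 0.011 for CCNE2, -0.0502 to 0.0512 for CCNB1, -0.0679 to 0.0748 for PLK1, -0.103 to 0.0772 for HMOX1, -0.0356 to 0.0956 for VEGFA, -0.075 to 0.0346 for TFRC and -0.014 to 0.0739 for LSM14A. The cause was not tested. With these totals, genes of few counts, such as RTEL1 and FST, are limited by counting error.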
